A study of Homo sapiens with 36 samples.

Results

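The miR-15/16 family was followed across 7 aneuploid human cell lines as the 7 mature miRNAs hsa-miR-15a-5p, hsa-miR-15b-5p, hsa-miR-16-5p, hsa-miR-195-5p, hsa-miR-424-5p, hsa-miR-497-5p and hsa-miR-503-5p. They were chosen by name from 509 mature miRNAs that the deposited tables list. Of the 7 members, 6 are listed in at least 1 table, and hsa-miR-497-5p is listed in 0 tables.

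miRNAs are short RNAs that guide the silencing complex to messenger RNAs, which they recognise mainly through the seed near their 5′ end. The miR-15/16 family is known to repress mRNAs of D-type and E-type cyclins, of the cyclin-dependent kinase CDK6, of the checkpoint kinases CHK1 and WEE1 and of the survival protein BCL2, and so to slow entry into the cell cycle. The pair encoded on chromosome 13 is frequently lost in chronic lymphocytic leukaemia.

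The sequences show what unites the family and where miR-503 departs from it. All 7 members matched the RefSeq table of GRCh38.p14, and the mature sequences are given 5′ to 3′ with the seed, bases 2 to 8, in capitals.
hsa-miR-15a-5p: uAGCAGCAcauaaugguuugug
hsa-miR-15b-5p: uAGCAGCAcaucaugguuuaca
hsa-miR-16-5p: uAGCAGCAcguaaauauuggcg
hsa-miR-195-5p: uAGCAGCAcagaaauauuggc
hsa-miR-424-5p: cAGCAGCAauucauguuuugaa
hsa-miR-497-5p: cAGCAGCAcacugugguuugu
hsa-miR-503-5p: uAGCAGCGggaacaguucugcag
The first 6 members share the seed AGCAGCA, which 7 of 2370 mature miRNAs in the table carry. The seed of miR-503 is AGCAGCG, found in 1 of 2370, so that miR-503 shares bases 2 to 7 with the others and differs at base 8. The sequences of miR-16 and miR-195 differ at 2 of 21 positions (G10A and U11G, counted from the 5′ end with the miR-16 base first). Between miR-15a and miR-15b, 4 of 22 positions differ.

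The members come from 4 clusters, all placed here on GRCh37. On chromosome 13 the hairpin MIR15A (chr13:50623255-50623337, minus strand) lies in an exon of the long non-coding RNA gene DLEU2, and MIR16-1 (chr13:50623109-50623197, minus strand) lies 57 bp away in a DLEU2 intron. On chromosome 3 MIR15B (chr3:160122376-160122473, plus strand) and MIR16-2 (chr3:160122533-160122613, plus strand) lie 59 bp apart in an intron of SMC4, which encodes a condensin subunit. The hairpins MIR195 (chr17:6920934-6921020) and MIR497 (chr17:6921230-6921341) lie on the minus strand of chromosome 17, within exons of MIR497HG. The minus strand of the X chromosome carries MIR424 (chrX:133680644-133680741) and MIR503 (chrX:133680358-133680428) in exons of MIR503HG, 215 bp apart. Mature miR-16 arises from both MIR16-1 and MIR16-2, and its reads cannot be assigned to either locus. Of the chromosomes with a family locus, chromosome 3 was gained in 1 line, HCT116* 3/3 c11, and 13, 17 and X in none by the line names.

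The data are 36 small RNA libraries in 12 groups of 3. HCT116 cells come from a colorectal cancer, and RPE1 cells from retinal pigment epithelium that was made immortal with telomerase. The names give the gained chromosome and its copies, the asterisk marks cells with the histone H2B fused to GFP, and c marks 1 clone. HCT116 5/4, with 4 copies of chromosome 5, was compared with HCT116, and RPE1 5/3 12/3, with 3 copies of chromosomes 5 and 12, with RPE1. HCT116 18/3 c2, HCT116* 3/3 c11 and HCT116* 8/3 c7, with 3 copies of chromosomes 18, 3 and 8, were all compared with the same HCT116* libraries, although HCT116 18/3 c2 lacks H2B-GFP. RPE1* 7/3, with 3 copies of chromosome 7, was compared with the RPE1* libraries numbered 11 to 13, and RPE1* 21/3, with 3 copies of chromosome 21, with those numbered 1 to 3. By the study's cell line list, the extra chromosome 12 of RPE1 5/3 12/3 was gained spontaneously, and RPE1* 7/3 also gained chromosomes 9 and 12 spontaneously.

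Each table holds, for 1 line against its control, the mean normalised read count over 6 libraries, the log2 fold change, its standard error (SE) and the p-values of the DESeq2 Wald test, all as the authors listed them. Values of single libraries were not analysed here and depth per library is unknown. The SE is that of the DESeq2 model on 3 libraries of each group, and it could not be checked against their spread. The means of all listed miRNAs summed to 5556870 normalised reads in HCT116 5/4, the lowest, and 11221232 in RPE1* 7/3, the highest. Sums, shares and ranks given here cover the listed miRNAs only. Nearly all arms named among those compared between controls below are 5p, so no value is a share of the whole miRNA pool. Cell identity was checked with 2 short marker lists. The 5p arms of 4 epithelial miRNAs of the miR-200 family together took 1270 to 2747 parts in 1000000 (ppm) of the summed level in the HCT116 tables and 0 to 0.58 in the RPE1 tables. The list for pigment epithelial and mesenchymal cells holds 6 miRNAs. Those listed together took 476 to 1461 ppm in the RPE1 tables and 172 to 308 in the HCT116 tables. Single miRNAs of this list did not all follow the sum. hsa-miR-199b-5p was listed in every HCT116 table and in no RPE1 table. hsa-miR-211-5p was listed in some tables of each cell type. The check therefore rests on the sums, and levels of single markers were not compared.

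Tests were read for miRNAs with a mean of 10 or more. A call needed an adjusted p under 0.05 and a log2 fold change of 0.6 or more in either direction. Over the 7 tables the members were listed 41 times and tested 37 times, and they were called 7 times, 4 times higher and 3 times lower. All miRNAs together were called in 315 of 1816 tests. In HCT116 5/4, 2 of 6 members tested were called, both higher, against 27.7% of all miRNAs called in that line and 18.5% called higher. RPE1 5/3 12/3 had 3 of 6 called, against 30.4%, with 2 higher where 16.9% of all miRNAs were higher and 1 lower where 13.5% were lower. HCT116 18/3 c2 had 1 of 5 called, lower, against 18.2% in either direction and 9.29% lower. HCT116* 8/3 c7 had 1 of 5 called, also lower, against 15% in either direction and 5.46% lower. No member of 5 tested was called in HCT116* 3/3 c11 (9.68% of all miRNAs), RPE1* 7/3 (13%) or RPE1* 21/3 (8.66%). With so few members per line these shares cannot be set apart from those of all miRNAs. Of the 7 calls, miR-503 made 4, and miR-424, miR-15a and miR-16 made 1 each.

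**Figure D1:**
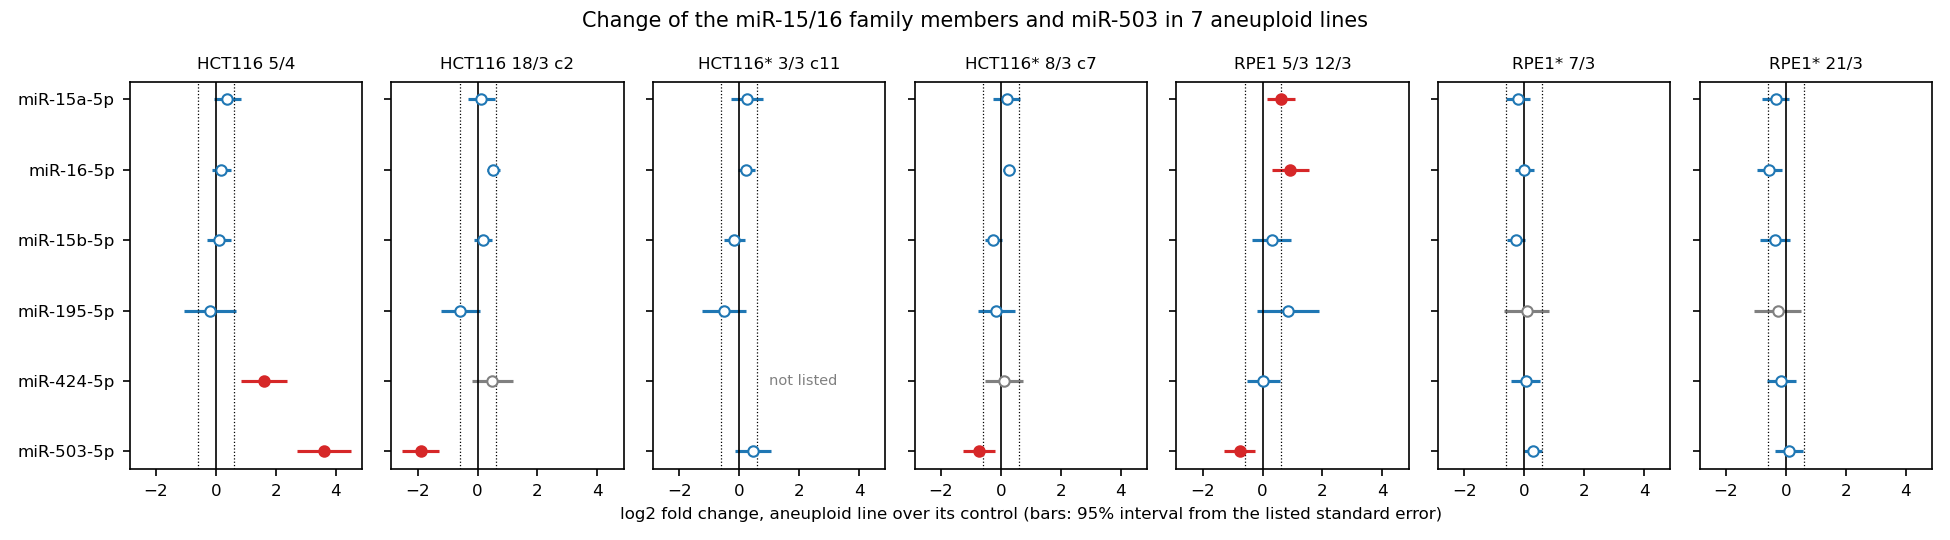
Log2 fold change of each member (rows) in each aneuploid line (panels) over its control, with the 95% interval from the listed SE. Filled red points are called, open blue points were tested and not called, open grey points have a mean under 10, and dotted lines mark a log2 fold change of 0.6 in either direction. The 7 filled points are miR-503 in 4 lines, miR-424 in HCT116 5/4, and miR-15a and miR-16 in RPE1 5/3 12/3.

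The X chromosome cluster held the widest changes of the family, and within it miR-503 moved up in one line and down in 3. miR-503 is known to act on cyclin D1 and CDC25A mRNAs, and miR-424 shares the full family seed. In the HCT116 control the level of miR-503 worked out from mean and fold change was 6.28 normalised reads, and in HCT116 5/4 it was 76.8. The log2 fold change was 3.61 (SE 0.47, adjusted p = 1.94e-13, DESeq2 as listed), a 12.2-fold increase with a 95% interval of 6.49 to 23. Of the 249 miRNAs tested in this line, 98.8% had a lower log2 fold change than miR-503. miR-424 went from 19.1 to 58.2 normalised reads, a log2 fold change of 1.61 (SE 0.40, adjusted p = 0.000397), or 3.04-fold with an interval of 1.77 to 5.24. These 2 members were the only ones called in HCT116 5/4, and both had means under 50 normalised reads (41.6 and 38.7).

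The level of miR-503 in HCT116 18/3 c2 fell from 34.3 normalised reads in HCT116* to 9.19, a log2 fold change of -1.90 (SE 0.32, adjusted p = 5.96e-08), or 3.73-fold lower with an interval of 2.41 to 5.77. This was the lowest log2 fold change of the 280 miRNAs tested in that line. Since the line has no H2B-GFP and its control does, a difference between HCT116 and HCT116* cells cannot be told apart from the gain of chromosome 18. As shares of the summed level, the control levels of miR-503 were 4.77 to 5.58 ppm for HCT116* in its 3 tables. They were 1.45 for HCT116 in the table of HCT116 5/4, and HCT116 18/3 c2 itself stood at 1.05. These tables were normalised separately and no test joins them. The model of HCT116 5/4 also had a term for the replicate number, which that of HCT116 18/3 c2 lacked. What lay behind these levels was not tested.

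Smaller decreases of miR-503 were called in HCT116* 8/3 c7, from 39.4 to 23.7 normalised reads (log2 fold change -0.74, SE 0.27, adjusted p = 0.0362), and in RPE1 5/3 12/3, from 314 to 184 (-0.77, SE 0.27, adjusted p = 0.0215). The call in HCT116* 8/3 c7 ended when fold changes were centred on the median of miRNAs with a mean of at least 100 (adjusted p = 0.0568). In the 3 other lines miR-503 was not called. Its log2 fold changes there were 0.46 (SE 0.31) in HCT116* 3/3 c11, 0.30 (SE 0.15) in RPE1* 7/3 and 0.10 (SE 0.24) in RPE1* 21/3.

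For miR-424 the values outside HCT116 5/4 lay near 0 where it was tested, with 0.03 (SE 0.28) in RPE1 5/3 12/3, 0.05 (SE 0.24) in RPE1* 7/3 and -0.15 (SE 0.25) in RPE1* 21/3. Its mean was 7.51 in HCT116 18/3 c2 and 6.02 in HCT116* 8/3 c7, under the minimum for testing, and it is not listed for HCT116* 3/3 c11, whose table lists no miRNA with a mean under 11.9.

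Other miRNAs of the same X chromosome region have unrelated seeds and are shown as neighbours of miR-503 and miR-424. MIR450A1 and MIR450B lie 6182 and 6351 bp from MIR424. Mature miR-450a also arises from a further hairpin, MIR450A2, whose position was not analysed here. Their mature sequences, again with bases 2 to 8 in capitals, are as follows.
hsa-miR-450a-5p: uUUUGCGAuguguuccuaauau
hsa-miR-450b-5p: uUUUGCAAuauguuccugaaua
Both were called higher in HCT116 5/4. hsa-miR-450a-5p rose from 70.8 to 300 normalised reads (log2 fold change 2.08, SE 0.26, adjusted p = 2.82e-14) and hsa-miR-450b-5p from 33.7 to 93.5 (1.47, SE 0.34, adjusted p = 8.37e-05). All 4 listed miRNAs of the region were thus called higher in this line. In RPE1 5/3 12/3 hsa-miR-450b-5p was called lower, as miR-503 was, at -0.68 (SE 0.26, adjusted p = 0.0418), while hsa-miR-450a-5p at -0.31 (SE 0.23) was not called. hsa-miR-450a-5p in RPE1* 7/3 passed the adjusted p (0.000228) at a log2 fold change of 0.59, short of the limit of 0.6. Where miR-503 fell by 1.90, in HCT116 18/3 c2, hsa-miR-450a-5p stood at -0.21 (SE 0.23) and hsa-miR-450b-5p at -0.20 (SE 0.30). hsa-miR-542-5p, from the same region, is listed in RPE1* 7/3 alone, at a mean of 1.54.

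**Figure D2:**
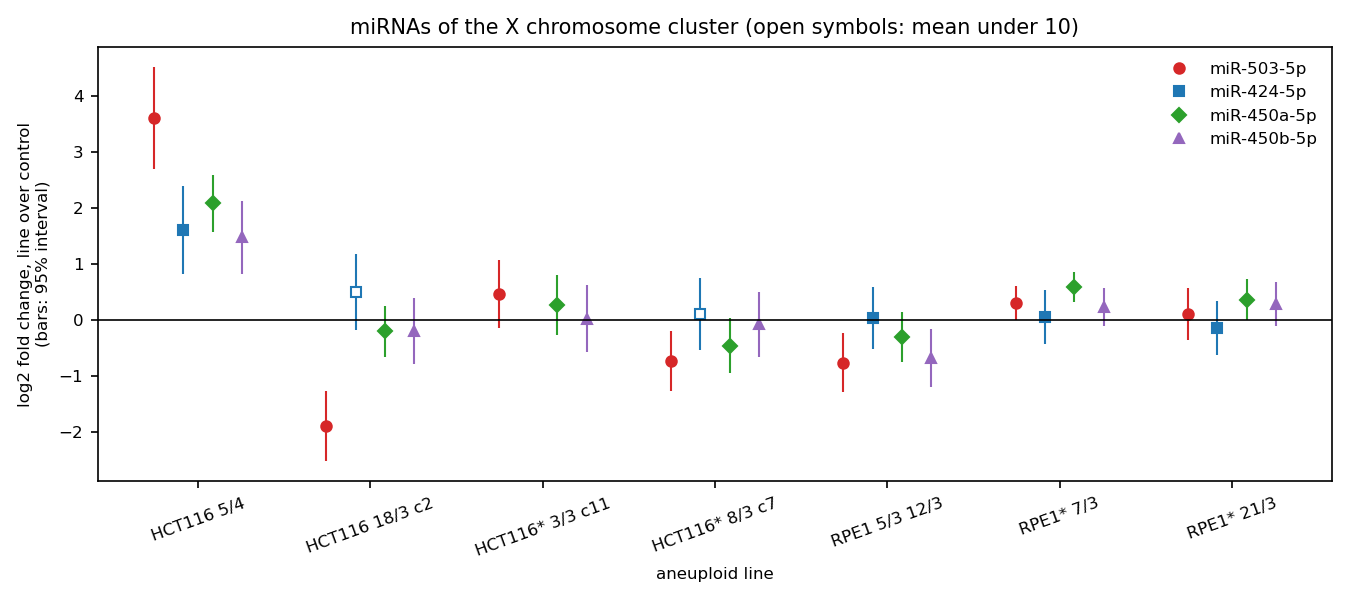
Log2 fold change of miR-503, miR-424, miR-450a and miR-450b (colours) in each aneuploid line over its control, with 95% intervals and open symbols for means under 10. All 4 lie above 0 in HCT116 5/4, with miR-503 highest at 3.61, whereas in HCT116 18/3 c2 miR-503 lies at -1.90 and the 3 others between -0.21 and 0.49.

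Members of the cluster differed from one another most in these 2 lines. The log2 fold change of miR-503 exceeded that of miR-424 by 2.01 in HCT116 5/4 (95% interval 0.80 to 3.21, with errors taken as independent) and that of miR-450a by 1.53 (0.49 to 2.58). For HCT116 18/3 c2 it was lower than that of miR-450a by 1.69 (interval of the difference -2.47 to -0.92) and than that of miR-450b by 1.70 (-2.57 to -0.84). The log2 fold change of miR-503 was also lower than that of miR-424 in RPE1 5/3 12/3, by a difference of -0.80 (-1.56 to -0.03). The intervals of the differences from miR-450a and miR-450b included 0 in the other 5 lines. These differences are descriptions, since the tables do not give the covariance of the errors.

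Of the clusters on chromosomes 13 and 3, only the RPE1 5/3 12/3 table gave calls, for miR-16 and miR-15a, and both calls depended on scaling. miR-16 rose there from 3751 to 7125 normalised reads (log2 fold change 0.93, SE 0.31, adjusted p = 0.0173), or 1.90-fold with an interval of 1.24 to 2.91. For miR-15a the log2 fold change was 0.61 (SE 0.24, adjusted p = 0.0425), at the edge of the fold limit, from 361 to 552 normalised reads. On the scale of the summed level it reversed in sign only, to -0.00091, with 50.1 ppm both in RPE1 and in the line, so that no change was left. The call of miR-15a was also lost under both centrings, at 0.55 (adjusted p = 0.0767) on the median of miRNAs tested and at 0.50 (adjusted p = 0.106) on that of miRNAs with a mean of at least 100. On the scale of the summed level the log2 fold change of miR-16 was 0.31 and its call was lost (adjusted p = 0.431). Its shares were 521 ppm in RPE1 and 646.2 in the line. Both centrings kept the call of miR-16, at 0.86 and 0.82 in the same order. miR-15b, which was not called, stood at 0.31 (SE 0.33) in the same line.

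Among HCT116 lines, miR-16 passed the adjusted p without reaching the fold limit in 2. Its level in HCT116 18/3 c2 went from 1203 to 1732 normalised reads (log2 fold change 0.53, SE 0.11, adjusted p = 3.17e-05), and 35.4% of all miRNAs passed the adjusted p in that line whatever their fold change. In HCT116* 8/3 c7, where that share was 30%, miR-16 went from 1301 to 1584 (0.28, SE 0.10, adjusted p = 0.0316). With all fold changes scaled to the summed level, these became 0.25 (adjusted p = 0.0711) and 0.26 (adjusted p = 0.0497). In HCT116 5/4 the listed log2 fold change of miR-16 was 0.18 (SE 0.16, adjusted p = 0.492), while its share of the summed level was 942 ppm in HCT116 and 681 in the line, and the log2 fold change on that scale was -0.47 (adjusted p = 0.0116). The scale leans on hsa-miR-21-5p, which alone took 45.9% of the summed mean there and had a log2 fold change of 0.71.

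In the RPE1* lines neither miR-15a, miR-16 nor miR-15b was called. miR-16 in RPE1* 21/3 had a log2 fold change of -0.55 (SE 0.21, adjusted p = 0.0743), from 4111 to 2806 normalised reads, and in RPE1* 7/3 it was at 0.00 (SE 0.16). miR-15a stood at -0.34 (SE 0.23) and -0.21 (SE 0.20) in these 2 lines. Over all 7 tables the log2 fold change of miR-15b ranged from -0.36 to 0.31, and it passed the adjusted p in 0 of 7. Scaled to the summed level, its value in HCT116 5/4 turned from 0.10 to -0.55 and passed the adjusted p (0.0186), short of the fold limit. That of miR-15a ranged from -0.34 to 0.61.

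The gain of chromosome 3 in HCT116* 3/3 c11 adds a copy of MIR15B and MIR16-2, and neither mature miRNA was called in that line. miR-15b was at 307 normalised reads in HCT116* and 274 in the line, a log2 fold change of -0.16 (95% interval -0.51 to 0.18). The ratio of 3 copies to 2 is 0.58 on the log2 scale, and the interval of miR-15b lies below it. miR-16, of which MIR16-1 on chromosome 13 is a second source, was at 1428 and 1684 normalised reads, a log2 fold change of 0.24 (-0.05 to 0.52). This interval holds 0 and ends just under 0.58, which is the ratio for its chromosome 3 locus alone. With a t distribution on 4 residual degrees of freedom the interval of miR-16 reached from -0.17 to 0.64 and held 0.58, and that of miR-15b, -0.65 to 0.32, did not. miR-15a, which has no locus on chromosome 3, stood at 0.26 (-0.28 to 0.79), an interval that holds both 0 and 0.58.

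On chromosome 17, miR-195 was the least abundant member listed in 5 of 7 tables and its changes could not be resolved. It was tested in 5 lines, with log2 fold changes between -0.57 in HCT116 18/3 c2 (SE 0.34) and 0.85 in RPE1 5/3 12/3 (SE 0.52), and it was not called. With fold changes scaled to the summed level, the value in HCT116 18/3 c2 became -0.85 and passed (adjusted p = 0.0386). Its mean in the RPE1* tables was 3.96 and 8.57, under the minimum. In HCT116 18/3 c2 and in both RPE1* tables the listed SE of miR-195 was smaller than counting error alone would give, and the same held for miR-424 in HCT116 18/3 c2 and HCT116* 8/3 c7, so the fold changes of these low members may not be on 1 scale across tables. miR-497, encoded 209 bp from MIR195, is not listed in any table.

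The levels of the members were set side by side as ppm of the summed level of each table, without correction for length, since the mature sequences have 21 to 23 bases. miR-16 made up 69.2% (RPE1* 7/3) to 85.1% (HCT116 5/4) of the family in every table. It ranked between place 30 and place 70 of the miRNAs listed in a table by mean. miR-15b followed with 26.6 to 86.5 ppm. miR-15a had 6.74 to 50.1, miR-424 0.77 to 18.4 and miR-195 0.35 to 4.89. miR-503 had 2.73 to 27.3 ppm.

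The level of miR-503 and the ratio of miR-16 to miR-15a did not overlap between the 2 cell types. miR-503 stood at 1.05 to 11.3 ppm in HCT116 controls and lines and at 16.7 to 43.6 in those of RPE1, with no overlap. The mean of miR-16 was 23 to 27.4 times that of miR-15a in the 4 HCT116 tables and 11.9 to 14.8 times in the 3 RPE1 tables, again with no overlap. The ratio of miR-16 to miR-15b did overlap, with 5.28 to 9.05 in HCT116 and 5.13 to 7.07 in RPE1. These separations are descriptions over 7 tables, of which 3 share their control libraries. The share of all miRNAs, or of ratios between miRNAs, that likewise do not overlap was not worked out. They are therefore not shown to be particular to these members.

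For miR-16, miR-15a and miR-15b the levels differed by the set of libraries, with no overlap, and overlapped between cell types. The share of all miRNAs that likewise do not overlap between the sets was not worked out. In the 3 tables whose model had a term for the replicate number (RPE1 5/3 12/3, HCT116 5/4 and RPE1* 21/3), miR-16 had 429 to 782 ppm, against 155 to 184 in the 4 others. miR-15a had 31 to 50.1 against 6.74 to 10.4, and miR-15b 83.7 to 86.5 against 26.6 to 34.9. Table means of miR-424 likewise did not overlap between the sets, with 6.96 to 18.4 ppm against 0.77 to 5.86 in the 3 others that list it, and overlapped between cell types. Its control and line levels did overlap between the sets, with 4.43 in the HCT116 control and 6.02 in RPE1* 7/3. Table means of miR-195 instead separated the cell types, narrowly, with 1.46 to 4.89 ppm in HCT116 and 0.35 to 1.42 in RPE1. They overlapped between the sets, with 1.06 to 4.89 and 0.35 to 1.94 in the tables with and without the term. Its control and line levels overlapped between the cell types as well, reaching down to 1.07 in HCT116 and up to 1.51 in RPE1. By the study's methods the term held the pairing of replicates within these comparisons and was meant to absorb batch effects of sequencing. The methods do not say that the sets with and without the term were separate batches. The RPE1* cells were sequenced in both sets, as libraries 1 to 3 and 11 to 13, so cell type does not enter their comparison. Control levels there were 490 and 153 ppm for miR-16, 90.3 and 28.8 for miR-15b, 37.4 and 11.1 for miR-15a, 18.6 and 5.70 for miR-424, but 24.9 and 22.7 for miR-503. The first 4 differed by 3.14 to 3.38 times and miR-503 by 1.10 times. Over 217 miRNAs the median of this ratio was 1.14, and for 22.1% it was at least 2. The 4 members with the seed AGCAGCA and means of at least 10 stood at percentiles 90.8 to 94.0 of these ratios and miR-503 at 48.4. For miR-195, with means under 10, the RPE1* control levels were 1.12 and 0.34 ppm, a ratio of 3.29 at percentile 93.5. What set the 2 sets of libraries apart was not tested.

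**Figure D3:**
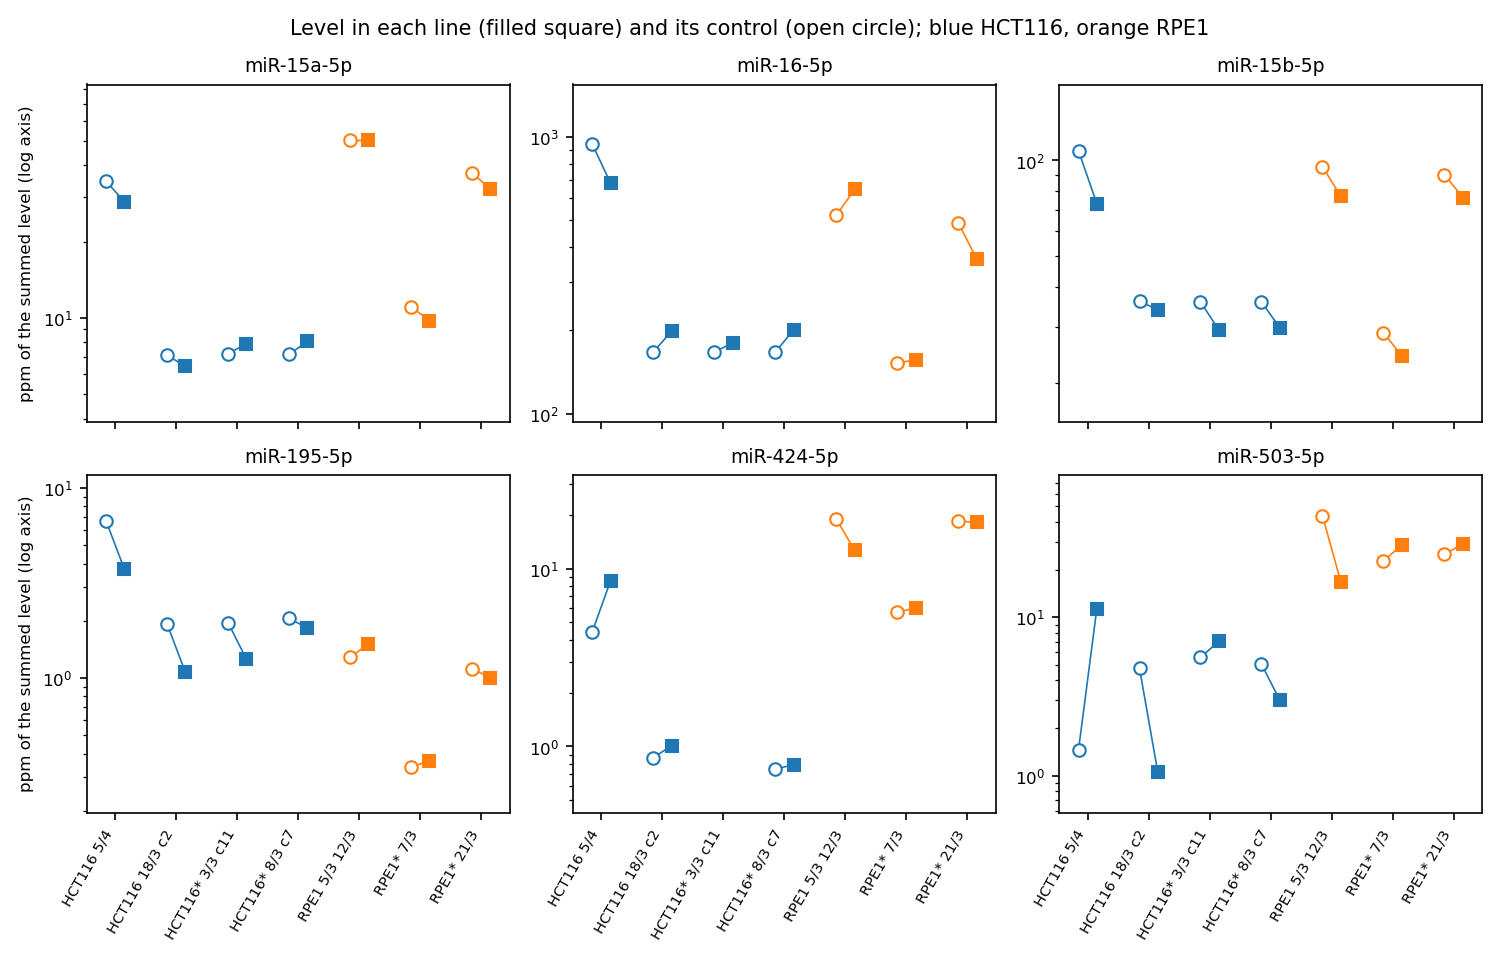
Level of each member (panels, logarithmic axis in ppm of the summed level) in each line (filled squares) and its control (open circles), with HCT116 in blue and RPE1 in orange. miR-15a, miR-16 and miR-15b are high in RPE1 5/3 12/3, HCT116 5/4 and RPE1* 21/3 with their controls, whereas miR-503 is higher in all RPE1 than in all HCT116 values.

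Between the HCT116 and HCT116* controls the set of libraries, the H2B-GFP label and the laboratory the cells came from changed together, and their parts cannot be told apart. HCT116 18/3 c2 lacks H2B-GFP but belongs to the set without the replicate term. It stood at 199 ppm for miR-16, 6.43 for miR-15a and 1.05 for miR-503, with chromosome 18 gained as well. HCT116 control levels were 5.64 times those of HCT116* for miR-16 and 4.83 times for miR-15a, 2.98 times for miR-15b and 3.25 times for miR-195, while miR-503 in HCT116 stood at 0.29 times its HCT116* level. The median ratio over 234 miRNAs was 1.201. The HCT116* control libraries themselves, worked out from their 3 tables, gave 167 ppm for miR-16 each time, and for the other members the highest value was at most 1.17 times the lowest.

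**Figure D4:**
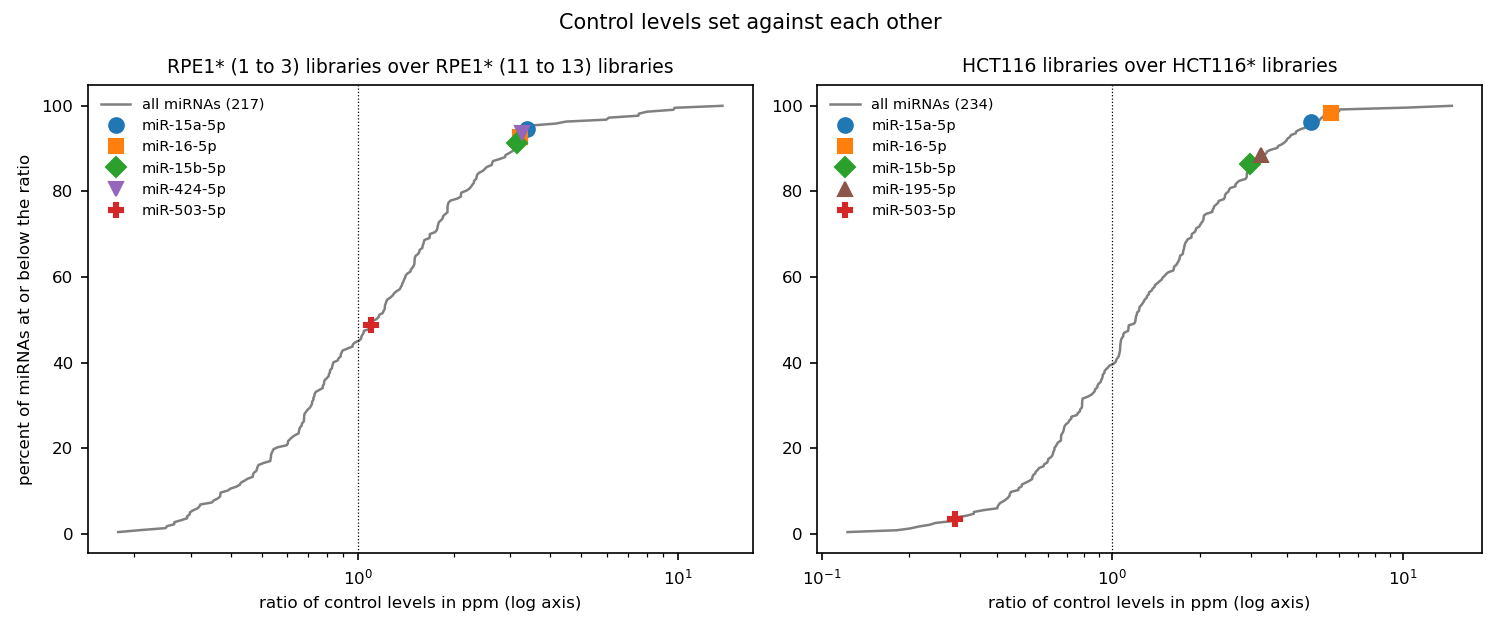
Ratio of control levels in ppm (horizontal, logarithmic) between RPE1* libraries 1 to 3 and 11 to 13 on the left, and between HCT116 and HCT116* on the right, against the percent of miRNAs at or below that ratio (grey line), with members marked where both means were at least 10. On the left miR-15a, miR-16, miR-15b and miR-424 lie together at 3.14 to 3.38, and miR-503 lies at 1.10.

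To ask whether a member responded differently in different lines, the log2 fold changes of 2 lines were compared wherever the lines shared no control libraries, in 18 pairs. With p-values adjusted over all miRNAs of a pair, 24 of 85 differences between members were significant, against 29.1% of all miRNAs. miR-503 differed in 12 of 18 pairs, miR-16 in 7 of 18, miR-424 in 3 of 6, miR-15a in 2 of 18, miR-15b in 0 of 18 and miR-195 in 0 of 7. The log2 fold change of miR-503 in HCT116 5/4 was above that in each of the 6 other lines, by 3.15 (HCT116* 3/3 c11) to 5.51 (HCT116 18/3 c2), with adjusted p-values between 2.99e-07 and 6.27e-21 for these 2. For miR-16 the widest difference was 1.48 between RPE1* 21/3 and the higher value of RPE1 5/3 12/3 (95% interval 0.74 to 2.21, adjusted p = 0.00095). Scaled to the summed level, 19 differences were significant, among them 14 of the 24. Of these, 11 of 12 remained for miR-503, 2 of 7 for miR-16, 1 of 3 for miR-424 and 0 of 2 for miR-15a. The widest difference of miR-16 was then 0.74 (adjusted p = 0.0942). The pairs overlap in their lines, so these counts do not come from independent comparisons.

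The miRNAs whose 7 log2 fold changes came nearest to those of a member were found by the root mean square difference among 173 miRNAs tested in all 7 lines, with errors partly shared through the HCT116* control. For miR-503 the nearest was its neighbour hsa-miR-450a-5p at 0.90, followed by hsa-miR-449c-5p, also at 0.90, where the median over all miRNAs was 1.64. For miR-16 the nearest were hsa-miR-29a-5p at 0.23 and miR-15a at 0.24, against a median of 0.62. miR-15a lay nearest to hsa-miR-125a-5p (0.17) and hsa-miR-659-5p (0.19), and miR-15b to hsa-miR-29b-1-5p (0.14) and hsa-let-7g-5p (0.20). hsa-miR-103a-2-5p, the opposite arm of a hairpin from the related miR-103 group, had means of 4.21 to 8.79 in 3 tables, too low to test.

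Other miRNAs known to act on cyclins, their kinases, inhibitors of these kinases or E2F factors were taken as a list of 27. It was drawn from the let-7, miR-34, miR-192, miR-26, miR-17 and miR-221 families. Of the 27, 24 are listed in at least 1 table, so the counts below do not cover every family in full. In HCT116 5/4, 11 of 24 tested were called higher, where 18.5% of all miRNAs were higher, and 0 lower, with a median log2 fold change of 0.44 where the median of all miRNAs was 0.04. The family members in that line had a median of 0.28. Of 23 tested in RPE1 5/3 12/3, 4 were higher and 2 lower, where 30.4% of all miRNAs were called, and of 23 in HCT116 18/3 c2, 2 were called in each direction, where that share was 18.2%. Calls in the other lines numbered 1 of 23 in HCT116* 3/3 c11 (9.68% of all miRNAs), 1 of 23 in HCT116* 8/3 c7 (15%), 3 of 22 in RPE1* 7/3 (13%) and 4 of 22 in RPE1* 21/3 (8.66%). The strongest call of the list per line was hsa-miR-449a in HCT116 5/4 (3.01, SE 0.29, adjusted p = 3.72e-24), a miRNA that shares the seed of miR-34 and is encoded on the gained chromosome 5. For HCT116 18/3 c2 it was hsa-miR-192-5p at -1.21 (SE 0.10), a miRNA induced by p53. hsa-miR-34c-5p, also a p53 target, was the strongest in HCT116* 3/3 c11 (1.04, SE 0.22), in HCT116* 8/3 c7 (-1.21, SE 0.25) and in RPE1* 7/3 (1.73, SE 0.25). hsa-miR-215 led in RPE1 5/3 12/3 (1.33, SE 0.34), and hsa-miR-20a-5p of the miR-17 cluster in RPE1* 21/3 (-0.85, SE 0.19). The list was chosen with earlier results of these data known, and its counts are a description.

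All 7 calls rest on the normal distribution of the Wald statistic. With a t distribution on 4 residual degrees of freedom, or 2 where the replicate number was a term, 0 of 7 calls remained, and 23 of the 315 over all miRNAs, at adjusted p-values of 0.333 for miR-503 in HCT116 5/4 and 0.0758 in HCT116 18/3 c2. The t distribution treats each SE as estimated from that miRNA's libraries alone, whereas DESeq2 shares its estimate of spread across miRNAs. It is therefore a strict setting, under which few calls of any miRNA could remain, and it does not decide whether the 7 calls hold.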

How the data were processed

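Small RNA from 36 libraries, 3 biological replicates per group, was sequenced by the authors as single reads of 75 or 100 bp. The authors removed adapters with cutadapt, mapped reads to hg19, counted mature miRBase miRNAs with mirdeep2 (2.0.0.8), each line together with its control, and ran DESeq2 (version not given in the sources used here), with the replicate number as a term for RPE1 5/3 12/3, HCT116 5/4 and RPE1* 21/3. The deposited mean is a signal, made by dividing counts by size factors and taking the mean of 6 libraries. Fold changes are the authors' deposited log2 ratios with SE, the deposited score is their quotient, and the deposited p-value and adjusted p-value are those of the Wald test, adjusted over all miRNAs of a table.

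The members were taken by name, and the members and lists were chosen with earlier results of these data known. Group levels were worked out from mean and log2 fold change, with 3 libraries a group, which is approximate where a model had the replicate term or shrank fold changes. Shares divide them by their sum in the table. Differences between lines were tested by a two-sided normal test on the listed SE, with Benjamini-Hochberg adjustment over miRNAs with a mean of at least 10 in both tables, after a test on simulated data. Hairpins of the RefSeq table were matched to GRCh37, with genes from GENCODE 44 lifted to that build. Named miRNAs were the members, X cluster neighbours, miRNAs sharing the seed, the 2 nearest in pattern, and the strongest called miRNA of the cell cycle list per line. Alternatives changed the fold limit, minimum mean, adjustment, centring, reference distribution and, chosen after seeing the data, the scaling to the summed level. Scripts ran in Python 3.11.15 with scipy 1.17.1, pandas 2.3.3, numpy 2.4.6 and matplotlib 3.10.9.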

Additional observations from a re-analysis of the deposited data

Results flagged for a closer look

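The members' log2 fold changes were compared between lines on separate control libraries, and 24 of 85 differences had an adjusted p under 0.05 (two-sided normal test on the SE that DESeq2 listed), where 29.1% of all miRNAs did, so the members were not set apart as a group. For miR-503, HCT116 5/4 exceeded HCT116 18/3 c2 by 5.51, HCT116* 3/3 c11 by 3.15, HCT116* 8/3 c7 by 4.35, RPE1 5/3 12/3 by 4.38, RPE1* 7/3 by 3.31 and RPE1* 21/3 by 3.51. Its change in HCT116 18/3 c2 minus that in RPE1 5/3 12/3 was -1.13, minus that in RPE1* 7/3 -2.20, and minus that in RPE1* 21/3 -2.002. HCT116* 3/3 c11 minus RPE1 5/3 12/3 gave 1.23, HCT116* 8/3 c7 minus RPE1* 7/3 gave -1.04, and RPE1 5/3 12/3 minus RPE1* 7/3 gave -1.07.

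The differences of miR-16 and miR-15a depend most on scaling, since 2 of 7 and 0 of 2 stayed significant when fold changes were scaled to the summed level. For miR-16, RPE1* 21/3 lay below HCT116 5/4 by a difference of 0.74 (-0.04 when scaled), HCT116 18/3 c2 by 1.08, HCT116* 3/3 c11 by 0.79, HCT116* 8/3 c7 by 0.83 and RPE1 5/3 12/3 by 1.48. The change of miR-16 in RPE1* 7/3 lay below that in HCT116 18/3 c2 by 0.52 and that in RPE1 5/3 12/3 by 0.92. For miR-15a, RPE1 5/3 12/3 exceeded RPE1* 7/3 by 0.82 (0.18 scaled) and RPE1* 21/3 by 0.95 (0.22 scaled). For miR-424, HCT116 5/4 exceeded RPE1 5/3 12/3 by 1.58, RPE1* 7/3 by 1.56 and RPE1* 21/3 by 1.75, of which 1 of 3 stayed significant when scaled.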

How the results depend on the processing

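No paired analysis was possible because the tables hold no values of single libraries, so that the replicate term, which 3 of the 7 deposited models have, could be neither added nor removed. Leaving out single replicates was not run for the same reason. The number of members called in HCT116 5/4 went from 2 to 1 when fold changes were tested against 0.6 on the log2 scale, and to 0 with a minimum mean of 100 or a t distribution. In HCT116 18/3 c2 it went from 1 to 2 without a fold limit or with scaling to the summed level, and to 0 with a minimum mean of 100 or the t distribution. In HCT116* 8/3 c7 it went from 1 to 2 without a fold limit and to 0 with a limit of 1, the test against 0.6, a minimum mean of 100, centring on the median of miRNAs with a mean of at least 100, or the t distribution. In RPE1 5/3 12/3 it went from 3 to 0 with a limit of 1, the test against 0.6 or the t distribution, and to 1 with scaling to the summed level. Both centrings lost the call of miR-15a there and left 2. A minimum mean of 100 leaves out miR-503 in every HCT116 table, and with it 10 in place of 24 differences between lines were significant, among 46 tested. Scaling to the summed level shifted log2 fold changes by between -0.65 (HCT116 5/4) and 0.12 (RPE1* 21/3), with -0.62 in RPE1 5/3 12/3. On that scale, miR-15a in RPE1 5/3 12/3 reversed to -0.00091. The 3 lines without a call kept that outcome under all alternatives run. The comparison of miR-15b with the copy number of chromosome 3 kept its side of the threshold under both centrings, the scaling and the t distribution. That of miR-16, at -0.35 from 0.58, kept it under all of these but the t distribution, where its p was 0.0757 (two-sided, an alternative chosen after seeing the data). Of the 24 differences between lines, 10 were lost with scaling to the summed level, where 19 were significant in all, and that of miR-16 between HCT116 5/4 and RPE1* 21/3 turned from 0.74 to -0.04. Low means limit miR-424 and miR-195 in most tables.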
